A study of Mus musculus with 9 samples.

Results

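The glutathione, thioredoxin and NRF2 redox genes are 39 mouse genes chosen by symbol, and each was found as 1 row in a table of 54876 genes. Their coordinates are those of GRCm38. They comprise 15 genes of glutathione metabolism, 11 of the thioredoxin and peroxiredoxin system, 8 that remove superoxide and peroxides, and 5 of NRF2 control. The samples were 9 libraries of total RNA from MIN6 cells, labelled as strain C57BL/6. MIN6 is a mouse insulinoma line used in place of pancreatic beta cells; it was derived from a tumour driven by a viral oncogene under the insulin promoter, so it proliferates, unlike most adult beta cells. Cells were kept for 24 h in low arginine (0.1 times the standard concentration), standard arginine (1 times) or high arginine (20 times), with 3 libraries each. All groups shared the line and the basal medium, and the labels do not tell whether the 3 libraries of a group came from separate cultures, so p-values measure only a spread between libraries that may be technical.

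Glutathione is a tripeptide of glutamate, cysteine and glycine that carries reducing power in the cytosol and mitochondria. Glutathione peroxidases and glutaredoxins spend it, and glutathione reductase restores it with NADPH. Thioredoxins, kept reduced by selenium-containing thioredoxin reductases, feed the peroxiredoxins, which remove hydrogen peroxide. The transcription factor NRF2, encoded by Nfe2l2, is held at low protein levels by KEAP1 and induces many of these genes when it is released, so that its control is largely at the protein level. Pancreatic beta cells of rodents are known for low catalase and low glutathione peroxidase activity compared with liver.

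The stretches before the gene starts of 34 of the 39 members were available from RefSeq (GRCm38.p6), in 48 windows of 250 bases before an annotated start. They were searched on both strands for the core of the antioxidant response element, TGACNNNGC, the site that NRF2 binds with small MAF partners, and for the C/EBP-ATF response element TGATGNAAN, which ATF4 binds in amino acid response genes. Hmox1, Gclc, Prdx6, Gsta4 and Gsr had no window and were not searched. The core was found in 6 of 34 members, 17.6%, against 11.5% of the 27025 genes with a window. By window this was 6 of 48 for the members, and 10.2% of all 32851. The ATF element was found in 1 member, Chac1, 2.94% of the 34, against 3.89% of all genes. Both shares are descriptions of these letters in these windows and not evidence of binding. The stretches below are shown because they hold a match and lie outside annotated exons; the match is in capitals, on the strand of the gene, and in each case reads on the opposite strand. The other matches, before Gstm5 and Nfe2l2, overlapped annotated exons.
Prdx1 (chr4:116685441-116685499, plus strand): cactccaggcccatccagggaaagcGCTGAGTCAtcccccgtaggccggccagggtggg
Gclm (chr3:122245398-122245456, plus strand): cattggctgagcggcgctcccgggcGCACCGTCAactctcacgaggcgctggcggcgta
Sod1 (chr16:90220681-90220739, plus strand): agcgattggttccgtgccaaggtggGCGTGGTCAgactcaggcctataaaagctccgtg
Txnrd1 (1 of 3 annotated starts, chr10:82859089-82859147, plus strand): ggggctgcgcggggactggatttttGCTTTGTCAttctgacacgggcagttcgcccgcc
Chac1 (chr2:119351023-119351081, plus strand): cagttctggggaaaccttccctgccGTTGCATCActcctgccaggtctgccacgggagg
The match before Prdx1 overlaps the AP-1 motif TGANTCA and the other 4 do not. No match of the antioxidant core overlapped one of the ATF element. Of the members with the antioxidant core, Prdx1, Gclm, Sod1 and Gstm5 fell in low arginine, Nfe2l2 rose and Txnrd1 did not pass the test. Chac1, with the ATF element, rose. Over all tested genes 30.3% rose and 31.9% fell in this contrast. Members searched without a match also changed, such as Srxn1 and Nqo1, which fell, and Gpx1, which rose. Whether a match goes with a direction was not tested. Values are given below.

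Reads in genes, rebuilt from the deposited values, numbered 21550637 to 26300872 per library. Markers of beta cells were present, with all 10 listed at a mean of at least 1 FPKM (fragments scaled by gene length and library size), and summed to 79141 to 80690.1 FPKM in low, 74245 to 82818 in standard and 75778 to 78286 in high arginine, nearly all of it Ins2 and Iapp. Single beta cell markers moved both ways in low against standard arginine, with Pdx1 at 2.496 and Nkx6-1 at 2.86 times its standard mean, and Ins1 at 0.691 and G6pc2 at 0.557 times. Neurod1, Nkx2-2 and Mafa were also higher, at 1.63, 1.46 and 1.26 times. Ins2, Iapp and Slc30a8 overlapped between the low and standard libraries. Acinar, duct, stromal, endothelial and immune markers, 15 genes, had no member at a mean of 1 FPKM, and Prss2, Cel, Krt19, Cdh5, Ptprc and Adgre1 were at 0 in every library. Of 4 alpha cell markers 2 were above 1 FPKM and their sum was 260.3 to 341 FPKM in low, 890.3 to 991 in standard and 892 to 901 in high arginine, nearly all of it Ttr. Of 3 delta and PP cell markers 2 were above 1 FPKM, and their sum, nearly all Sst, was 8718 to 11313 FPKM in low, 5434 to 6207 in standard and 5721 to 5913 in high arginine. The part of these marker transcripts in the results was not tested. In bulk RNA, fewer cells of a type and less RNA per cell cannot be told apart.

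The redox genes spanned a wide range of expression. In standard arginine 6 members exceeded 100 FPKM, 19 lay between 10 and 100, 10 between 1 and 10 and 4 below 1. Gstp1, a glutathione S-transferase, was highest at 268 ± 20.2 FPKM (SD, n = 3), followed by Txn1, cytosolic thioredoxin, at 144 ± 4.04 FPKM and Prdx4, the peroxiredoxin of the endoplasmic reticulum (ER), at 135 ± 5.30 FPKM. Neighbours in this order were often not separable, since 20 of the 38 neighbouring pairs overlapped in their 3 standard libraries. In low arginine the order changed at the top, where Chac1, sixth in standard arginine, became the most abundant member at 234 ± 10.2 FPKM.

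**Figure D1:**
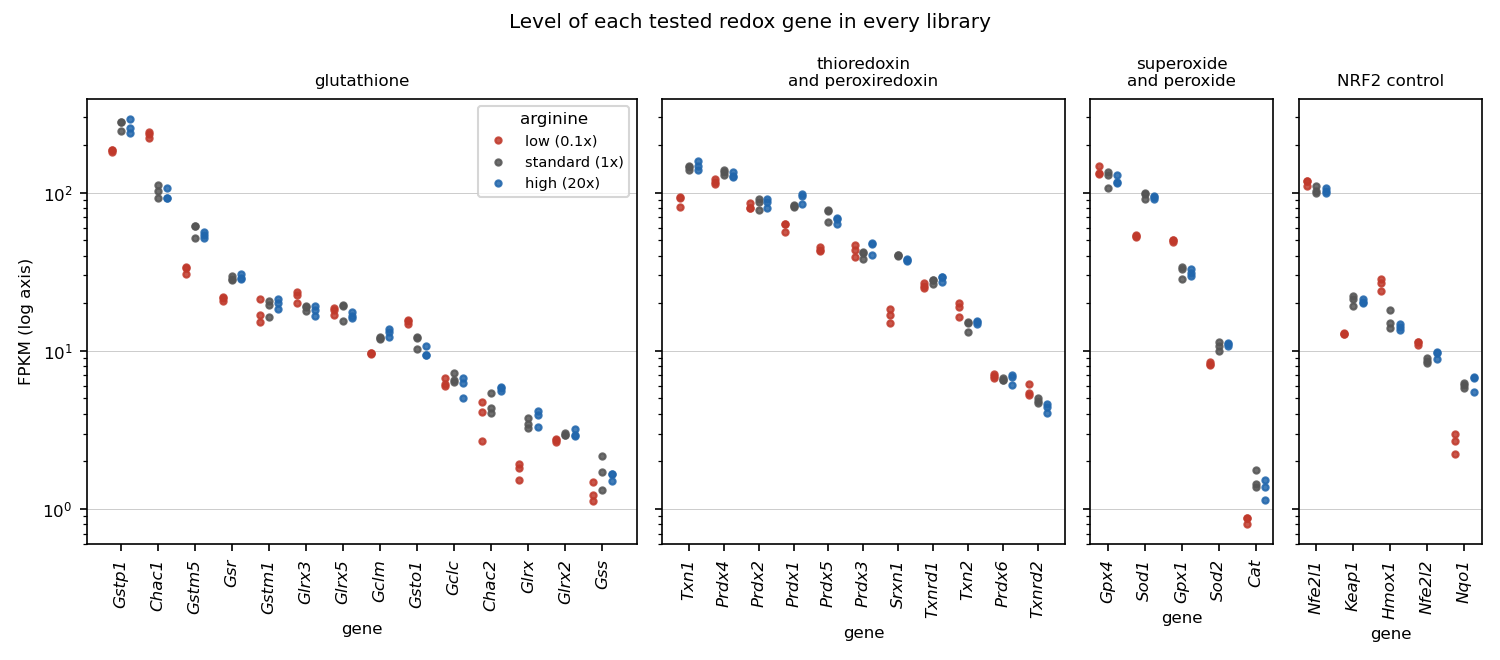
Level in FPKM (log axis) of the 35 tested redox genes in each of the 9 libraries, by system, with low (0.1 times), standard (1 times) and high (20 times) arginine from left to right for each gene. The standard and high arginine points lie close together for most genes, while low arginine points lie apart for genes such as Chac1, Srxn1, Sod1 and Nqo1.

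Catalase was scarce. Cat, which breaks down hydrogen peroxide in peroxisomes, had 0.802, 0.874 and 0.883 FPKM in low, 1.43, 1.77 and 1.38 in standard and 1.14, 1.53 and 1.37 in high arginine, from 55 to 96 reads per library. Among the glutathione peroxidases, Gpx4, which reduces lipid hydroperoxides, averaged 124 ± 15.1 FPKM in standard arginine and Gpx1, the general cytosolic form, 31.8 ± 2.78 FPKM (SD, n = 3 each). The secreted Gpx3 lay at 0.240 to 0.498 FPKM over the 9 libraries, and the ER peroxidases Gpx7 and Gpx8 at 0 to 0.338 and 0 to 0.0692 FPKM. With Gsta4, a transferase for lipid aldehydes at 0.0703 to 0.378 FPKM, these 3 did not reach the filter of 1 FPKM in at least 3 libraries and were not tested.

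Arginine deprivation changed 24 of the 35 tested redox genes, with 9 higher and 15 lower than in standard arginine. Srxn1, Nqo1, Glrx, Sod1 and Gstm5 were among those that fell, with means at 0.418, 0.437, 0.504, 0.553 and 0.561 times the standard mean. Chac1, Hmox1 and Gpx1 were among those that rose, at 2.29, 1.68 and 1.56 times. Calls were made with limma on log2(FPKM + 1), where a Benjamini-Hochberg adjusted p under 0.05 over 12300 genes is a call. In this contrast 62.2% of all genes tested were called, 30.3% higher and 31.9% lower, so that the members' 68.6% lies near the background; 25.7% of members were higher and 42.9% lower. The members' median log2 change was -0.09, against 0.001 for all tested genes. When values were rescaled to TPM the median of all genes shifted to 0.12 and 61.6% of all calls were rises, against 48.7% as deposited; 12 members were then higher and 14 lower. In 25 members, 71.4%, the 3 low and 3 standard libraries did not overlap, against 65.4% of all tested genes. These were the called members except Nfe2l1, plus Glrx2 and Prdx6, which were not called.

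**Figure D2:**
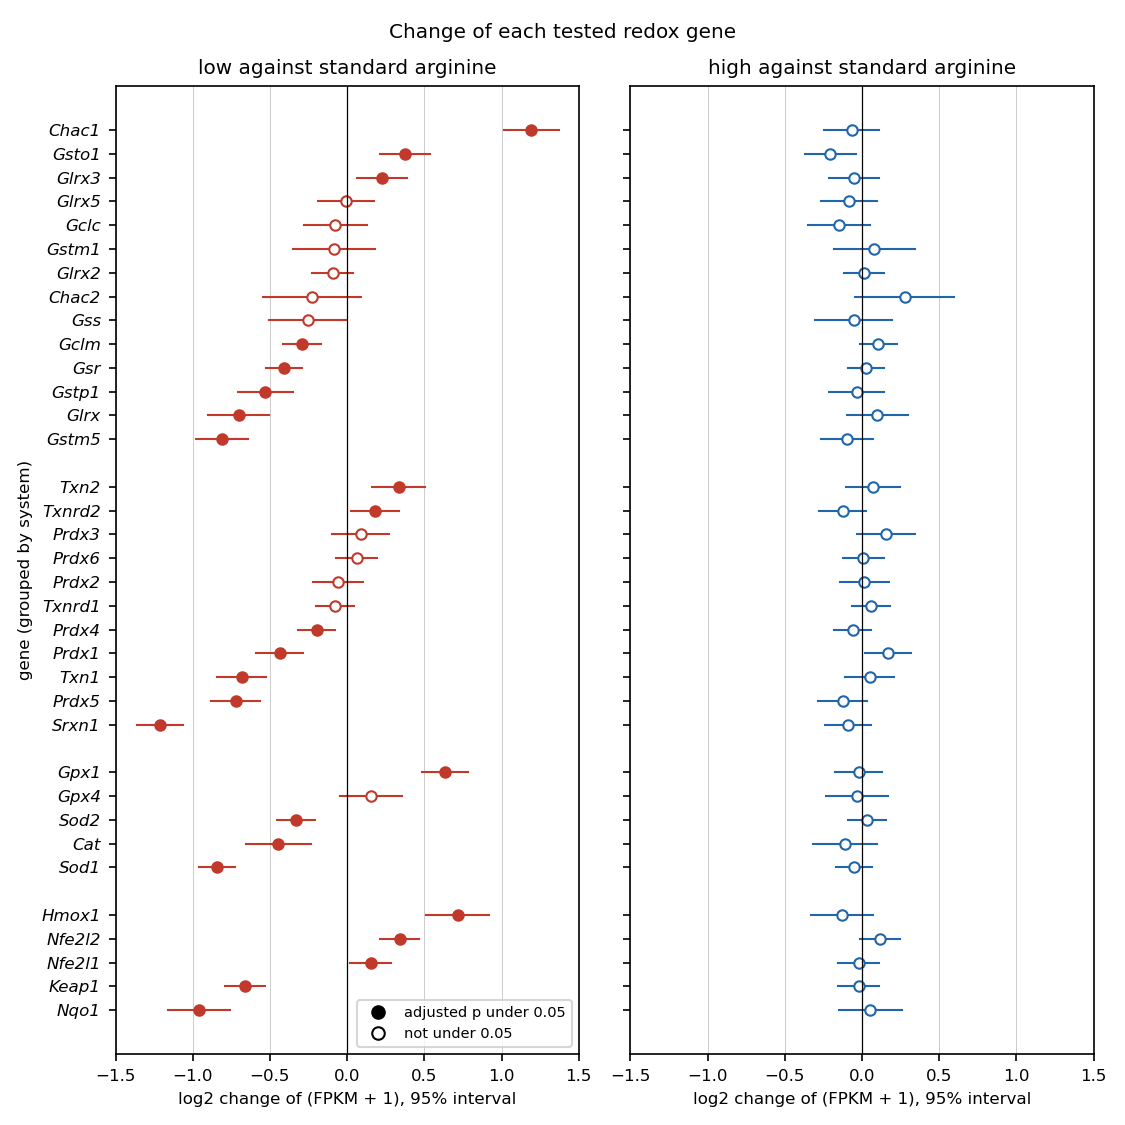
Log2 change of (FPKM + 1) with its 95% interval for the 35 tested redox genes, grouped by system from top to bottom as glutathione, thioredoxin and peroxiredoxin, superoxide and peroxide, and NRF2 control. In low against standard arginine 24 points are filled (adjusted p under 0.05), from -1.21 for Srxn1 to 1.19 for Chac1, while in high against standard arginine 0 are filled.

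In the glutathione system, genes of its synthesis and recycling fell or did not pass the test in low arginine, and of its breakdown enzymes 1 of 2, Chac1, rose. Of 14 tested members 3 rose and 5 fell, with a median log2 change of -0.16. The share called, 57.1%, lies near the 62.2% of all tested genes. Gclc, the catalytic subunit of the first synthesis enzyme, had 6.72, 6.01 and 6.21 FPKM in low against 6.40, 6.54 and 7.22 FPKM in standard arginine. These groups overlapped and its change, -0.08 (SE 0.09, adjusted p 0.482), did not pass. Gclm, the modifier subunit that lowers the enzyme's feedback inhibition, had 9.66, 9.69 and 9.60 FPKM in low against 11.9, 11.99 and 12.2 FPKM in standard arginine, groups that did not overlap, with a log2 change of -0.29 (SE 0.06, adjusted p 9.15e-04). Gss, glutathione synthetase, averaged 1.28 ± 0.183 FPKM in low against 1.74 ± 0.428 FPKM in standard arginine with a log2 change of -0.26 (SE 0.11, adjusted p 0.0698). A call was gained with voom weights, at -0.42, without low replicate 1, at -0.32, and without standard replicate 3, at -0.37, and 15.4% of its exon bases are shared with genes on the other strand. Gsr, glutathione reductase, had 20.6, 21.7 and 21.8 FPKM in low against 28.1, 29.8 and 28.4 FPKM in standard arginine. Every low library was below every standard library, and the log2 change was -0.41 (SE 0.05, adjusted p 6.23e-05).

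Of the breakdown enzymes Chac1 rose and Chac2 did not pass the test. Chac1 (ENSMUSG00000027313, chr2:119351229-119354381) encodes a gamma-glutamylcyclotransferase of the cytosol and is a known target of ATF4. It had 243, 236 and 223 FPKM in low, 102, 111 and 92.8 in standard and 107, 93.2 and 92.1 in high arginine. The low libraries stood at more than 2 times the others, with a log2 change of 1.19 (SE 0.08, adjusted p 5.67e-07) against standard arginine. Its constitutive relative Chac2 had 2.69, 4.11 and 4.75 FPKM in low and 4.05, 4.36 and 5.45 in standard arginine, on 93 to 186 reads per library. The groups overlapped, low replicate 1 was the lowest, and the log2 change was -0.23 (SE 0.14, adjusted p 0.191); without low replicate 3 it was called at -0.36.

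The glutaredoxins, which use glutathione to reduce protein disulfides or to carry iron-sulfur clusters, moved in both directions. Glrx, the cytosolic disulfide reductase, had 1.53, 1.91 and 1.81 FPKM in low against 3.23, 3.42 and 3.77 FPKM in standard arginine. The groups were well apart and the log2 change was -0.70 (SE 0.09, adjusted p 5.90e-05). Glrx3, a cytosolic iron-sulfur carrier, had 20.1, 23.7 and 22.5 FPKM in low against 17.9, 19.2 and 19.0 FPKM in standard arginine, a log2 change of 0.23 (SE 0.07, adjusted p 0.0200). That call was lost without low replicate 2 (0.18), low replicate 3 (0.21) or standard replicate 1 (0.20), and a pseudogene transcript is near-identical to 28.02% of its transcript. The mitochondrial Glrx2 and Glrx5 did not pass, at -0.09 and -0.01, with 95% intervals of -0.22 to 0.04 and -0.19 to 0.18.

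Among the glutathione S-transferases, which attach glutathione to reactive compounds, 2 of 4 tested members fell and 1 rose. Gstm5 had 30.5, 34.1 and 33.5 FPKM in low against 61.7, 61.3 and 51.9 FPKM in standard arginine, and Gstp1 had 187, 187 and 180.0 FPKM in low against 279, 279.8 and 245 FPKM in standard arginine. Neither gene's groups overlapped, and the log2 changes were -0.81 (SE 0.08, adjusted p 6.61e-06) for Gstm5 and -0.53 (SE 0.08, adjusted p 2.25e-04) for Gstp1. Gsto1, an omega-class enzyme with reductase activity, went the other way, with 14.7, 15.4 and 15.6 FPKM in low against 12.2, 12.1 and 10.4 FPKM in standard arginine, a log2 change of 0.37 (SE 0.07, adjusted p 0.00122). Gstm1, of the same gene cluster as Gstm5 on chromosome 3, overlapped between groups and did not pass, at -0.09 (SE 0.12). Values of Gstp1 and Gstm1 are uncertain, because near-identical transcripts of other genes, Gstp2 for the first, cover 86.1% and 51.0% of theirs, and 13.9% of the exon bases of Gstm5 are shared with a gene on the other strand.

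**Figure D3:**
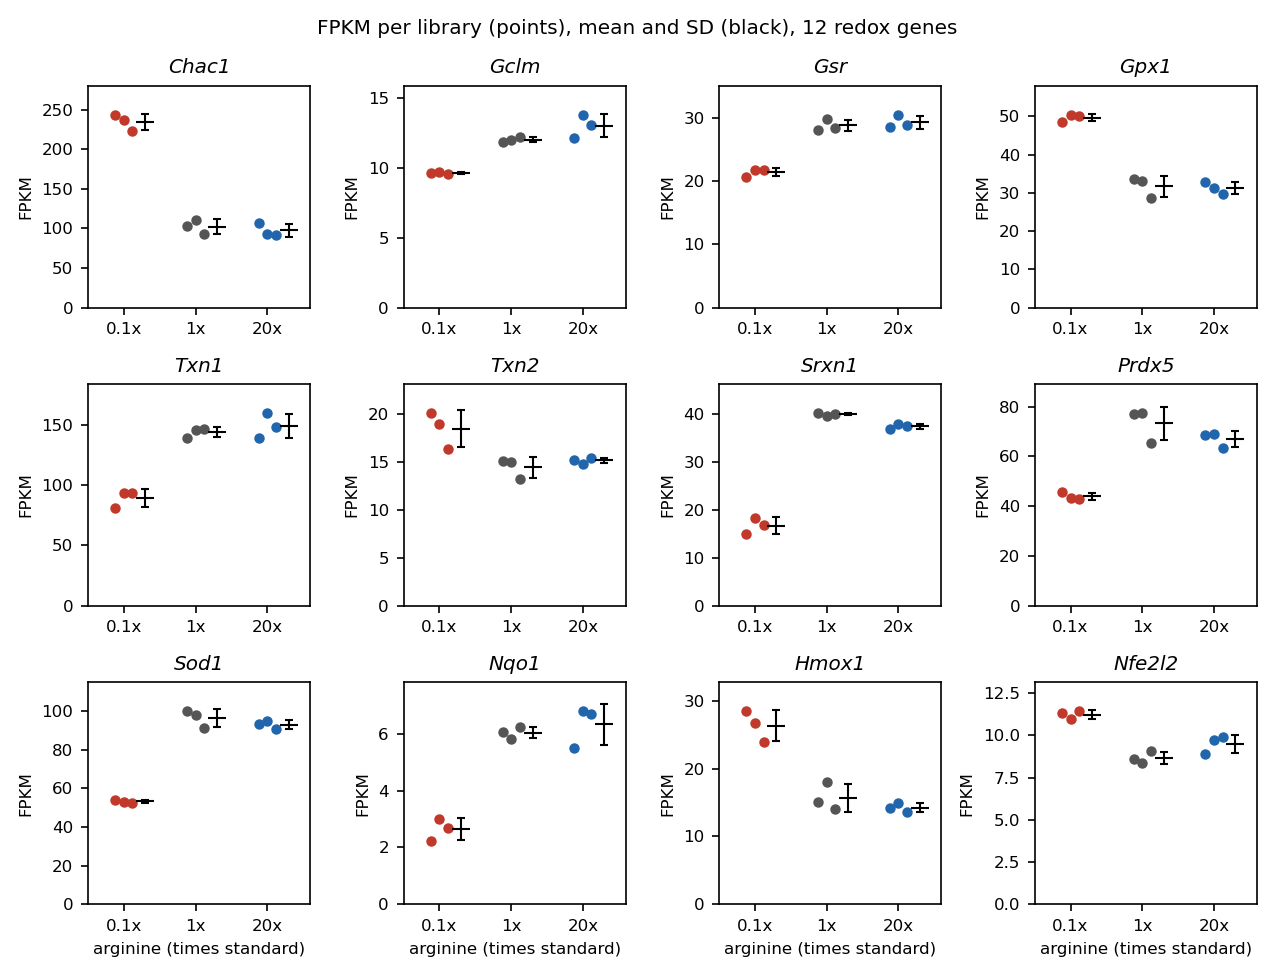
FPKM of 12 redox genes in each library (points) with the mean and SD of each group of 3 (black), at 0.1, 1 and 20 times standard arginine. The low arginine points of Chac1, Gpx1, Txn2, Hmox1 and Nfe2l2 lie above, and those of the other 7 genes below, the standard arginine points.

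In the thioredoxin and peroxiredoxin system 2 of 11 members rose and 5 fell in low arginine, with a median log2 change of -0.08. The share called, 63.6%, lies near the 62.2% of all tested genes. The product of the sulfiredoxin gene Srxn1 (ENSMUSG00000032802, chr2:152105516-152111376) repairs over-oxidised peroxiredoxins. Srxn1 had 14.9, 18.3 and 16.9 FPKM in low against 40.2, 39.7 and 40.1 FPKM in standard arginine. The low libraries were at less than 0.5 times every standard library, and the log2 change was -1.21 (SE 0.07, adjusted p 1.68e-07). Txn1, the cytosolic thioredoxin, had 81.1, 93.6 and 93.2 FPKM in low against 139, 145 and 147 FPKM in standard arginine, a log2 change of -0.68 (SE 0.07, adjusted p 1.45e-05). Its mitochondrial counterpart Txn2 had 20.1, 19.0 and 16.4 FPKM in low against 15.2, 14.99 and 13.2 FPKM in standard arginine, so that each low library was above each standard library, with a log2 change of 0.33 (SE 0.08, adjusted p 0.00370). Txnrd1, the cytosolic thioredoxin reductase, had 27.0, 25.7 and 24.9 FPKM in low against 27.9, 26.3 and 28.02 FPKM in standard arginine, which overlap, and its log2 change of -0.08 had a 95% interval of -0.20 to 0.04.

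Txnrd2, the mitochondrial reductase, had 6.20, 5.27 and 5.44 FPKM in low against 4.68, 5.04 and 4.82 FPKM in standard arginine, a log2 change of 0.18 (SE 0.07, adjusted p 0.0415). This call was marginal. It was lost without low replicate 1 (0.12) or 3 (0.20), without standard replicate 1 (0.16), 2 (0.20) or 3 (0.18), and without high replicate 2 (0.18), and also when the low and standard libraries alone were fitted (0.18), with no filter on low values (0.18) and under quantile normalization (0.16).

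The 6 peroxiredoxins split into 3 that fell and 3 that did not pass. Prdx5, found in mitochondria, peroxisomes and cytosol, had 45.5, 43.2 and 42.9 FPKM in low against 76.9, 77.3 and 65.5 FPKM in standard arginine, a log2 change of -0.72 (SE 0.07, adjusted p 1.00e-05). Prdx1, an abundant cytosolic form, had 56.1, 63.0 and 63.1 FPKM in low against 83.6, 82.2 and 81.7 FPKM in standard arginine, a log2 change of -0.44 (SE 0.07, adjusted p 2.56e-04). In both genes the groups were clear of each other, but 19.1% of the exon bases of Prdx5 are shared with Trmt112 on the other strand, and near-identical pseudogene transcripts cover 26.0% of the Prdx1 transcript. Prdx4 had 114, 122 and 117 FPKM in low against 135, 140.2 and 129.6 FPKM in standard arginine, and its log2 change of -0.20 (SE 0.05, adjusted p 0.00876) turned to 0.05 under quantile normalization and was not called in TPM (-0.07). The cytosolic Prdx2, the mitochondrial Prdx3 and Prdx6, a form with phospholipase activity, were at -0.06, 0.09 and 0.06, with 95% intervals of -0.22 to 0.10, -0.10 to 0.27 and -0.07 to 0.19; in TPM Prdx3 and Prdx6 were called higher, at 0.21 and 0.19. Other genes on the opposite strand share 11.5% of the exon bases of Prdx2. Summed over the 6, peroxiredoxin transcripts came to 354 ± 5.65 FPKM in low against 423 ± 21.05 FPKM in standard arginine (SD, n = 3 each). All 11 genes of the system together came to 510.2 ± 11.9 FPKM in low against 653 ± 19.0 FPKM in standard arginine. Other sums did not all fall. In the same order, glutathione genes came to 572 ± 13.7 against 556 ± 38.8 FPKM, and NRF2 control to 169 ± 6.60 against 156 ± 8.75 FPKM. The glutathione sum rests largely on Chac1, a breakdown enzyme, at 234 ± 10.2 against 102 ± 9.18 FPKM. It also rests on Gstp1, at 185 ± 4.29 against 268 ± 20.2 FPKM. Most of the NRF2 control sum is Nfe2l1, at 116 ± 4.60 against 104 ± 5.83 FPKM. Such sums therefore do not show that the other genes of a system kept their level. Superoxide and peroxide genes came to 251 ± 9.15 against 265 ± 23.1 FPKM, and glutathione peroxidases within them to 188 ± 8.44 against 157 ± 17.9 FPKM. All these sums are of FPKM as deposited.

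Both superoxide dismutases fell, while Gpx1 rose. Sod1 (ENSMUSG00000022982, chr16:90220754-90226329) encodes the copper-zinc enzyme of the cytosol. It had 54.3, 53.2 and 52.6 FPKM in low, 100.04, 98.1 and 91.4 in standard and 93.7, 95.2 and 90.8 in high arginine. The low libraries lay close together, far below the other 6, with a log2 change against standard arginine of -0.84 (SE 0.05, adjusted p 3.48e-07). A pseudogene transcript is near-identical to 72.5% of the Sod1 transcript, so its level is uncertain. Sod2, the manganese enzyme of mitochondria, had 8.17, 8.47 and 8.25 FPKM in low against 11.3, 10.8 and 10.03 FPKM in standard arginine, a smaller log2 change of -0.33 (SE 0.06, adjusted p 4.33e-04). Cat changed by -0.45 (SE 0.09, adjusted p 0.00190). It is counted among the 15 lower members, but it passed the filter through the standard and high libraries alone, so its call is given as a description.

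Of the tested glutathione peroxidases Gpx1 rose and Gpx4 did not pass. Gpx1 (ENSMUSG00000063856, chr9:108338903-108340343) encodes a selenoprotein. It had 48.6, 50.4 and 50.1 FPKM in low, 33.7, 33.0 and 28.6 in standard and 32.8, 31.2 and 29.7 in high arginine. Low libraries were above all 6 others, with a log2 change of 0.63 (SE 0.07, adjusted p 1.84e-05) against standard arginine. Gpx4 had 149, 134 and 131 FPKM in low against 136, 129 and 107 FPKM in standard arginine. The groups overlapped, with standard replicate 3 the lowest, and the log2 change of 0.15 (SE 0.09, adjusted p 0.161) had a 95% interval of -0.05 to 0.35; it was called at 0.28 in TPM, at 0.38 under quantile normalization and at 0.15 with a replicate block. A near-identical pseudogene transcript covers 73.7% of the Gpx4 transcript.

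In NRF2 control the transcript for the activator rose and that for its repressor fell, while the classical targets went in opposite directions. Nfe2l2 had 11.3, 10.96 and 11.4 FPKM in low, 8.61, 8.35 and 9.06 in standard and 8.87, 9.73 and 9.88 in high arginine. Each low library was above the other 6, with a log2 change of 0.34 (SE 0.06, adjusted p 4.46e-04) against standard arginine. Keap1, the substrate adaptor that sends NRF2 for degradation, had 12.9, 12.8 and 12.7 FPKM in low against 21.2, 22.2 and 19.2 FPKM in standard arginine, far apart, with a log2 change of -0.66 (SE 0.06, adjusted p 4.78e-06); 10.9% of its exon bases are shared with a gene on the other strand.

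Nqo1 (ENSMUSG00000003849, chr8:107388225-107403206) encodes a quinone reductase used as a standard readout of NRF2 activity. It had 2.23, 2.99 and 2.70 FPKM in low, 6.06, 5.84 and 6.24 in standard and 5.51, 6.80 and 6.70 in high arginine. The low libraries were at about 0.437 times the standard mean, with a log2 change of -0.96 (SE 0.09, adjusted p 7.41e-06). Hmox1 (ENSMUSG00000005413, chr8:75093621-75100589) encodes heme oxygenase and is also induced by ATF4 and other stress factors. It had 28.4, 26.7 and 23.9 FPKM in low, 15.1, 18.0 and 14.0 in standard and 14.2, 14.9 and 13.5 in high arginine. It was higher in each low library than in the other 6, with a log2 change of 0.72 (SE 0.09, adjusted p 6.18e-05). Nfe2l1, a related factor that controls proteasome genes, had 118, 119 and 110.5 FPKM in low against 103, 111 and 99.2 FPKM in standard arginine. These groups overlapped, with a log2 change of 0.15 (SE 0.06, adjusted p 0.0476). The call was lost without low replicate 1 (0.14) or 2 (0.13), without standard replicate 1 (0.14) or 3 (0.12), and without high replicate 2 (0.15) or 3 (0.15). It was also lost with no filter on low values (0.15) and when the low and standard libraries alone were fitted (0.15).

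Cytosolic and mitochondrial members of the same family were set side by side within each library, in pairs chosen after their values were seen. Cytosolic members of these families left out of the pairs were Glrx3, which was called higher, and Prdx2 and Prdx6, which did not pass the test. Also left out were Prdx5, found in mitochondria as well as the cytosol, which was called lower at -0.72, and Prdx4 of the ER, called lower at -0.20. The mitochondrial Glrx5, at -0.01, did not pass and was not paired. The ratio of Txn1 to Txn2 FPKM was 4.03, 4.92 and 5.69 in low and 9.17, 9.68 and 11.1 in standard arginine. For Glrx to Glrx2 it was 0.578, 0.696 and 0.651 in low and 1.07, 1.16 and 1.28 in standard arginine. In both pairs the cytosolic transcript was lower relative to the mitochondrial one in each low library. The same order held for Sod1 to Sod2, at 6.43 ± 0.187 in low and 9.02 ± 0.171 in standard arginine, for Prdx1 to Prdx3, at 1.41 ± 0.0544 in low and 2.04 ± 0.0940 in standard arginine, and for Txnrd1 to Txnrd2, at 4.60 ± 0.255 in low and 5.66 ± 0.388 in standard arginine (SD, n = 3 each). The ratio of Keap1 to Nfe2l2 was 1.14 ± 0.0247 in low and 2.42 ± 0.270 in standard arginine. In all 6 pairs the low and standard libraries did not overlap; since the pairs were picked for this, the ratios are a description with no test. In high arginine the ratio of Txn1 to Txn2 was 9.11, 10.7 and 9.59, which overlaps the standard libraries. That of Sod1 to Sod2 was 8.51 ± 0.0344 in high and 9.02 ± 0.171 in standard arginine, groups that did not overlap. For the remaining pairs the high and standard libraries overlapped.

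**Figure D4:**
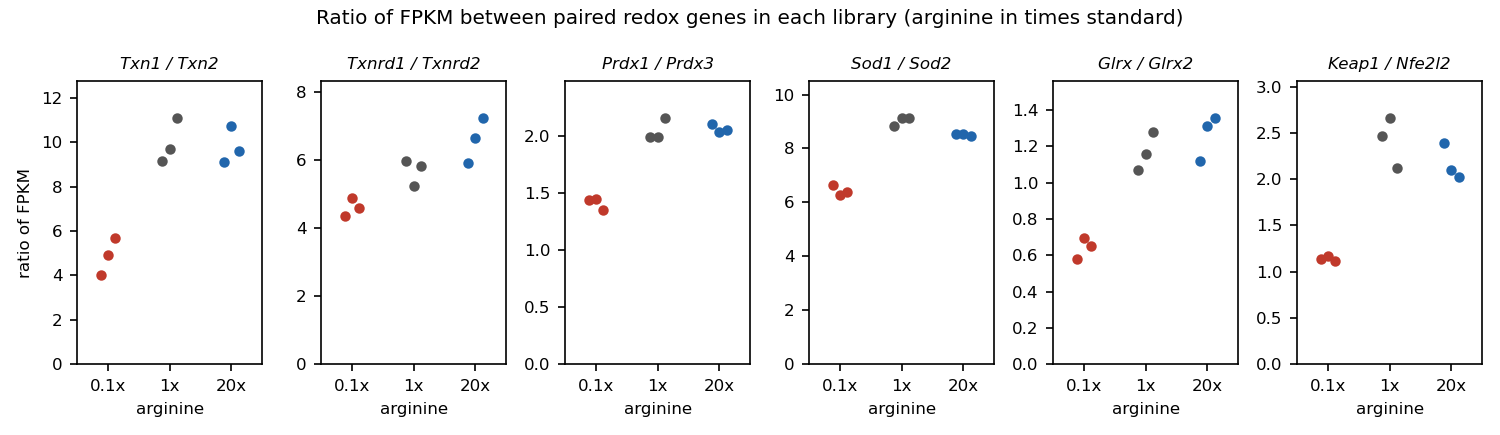
Ratio of FPKM between 2 redox genes in each library, at 0.1, 1 and 20 times standard arginine, for 5 pairs of a cytosolic and a mitochondrial form and for Keap1 over Nfe2l2. In all 6 panels the 3 low arginine points lie below the 3 standard arginine points, as for Txn1 over Txn2, at 4.03 to 5.69 in low and 9.17 to 11.1 in standard arginine.

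Arginine excess changed 0 of the 35 redox genes in limma. In that contrast 0.309% of all 12300 genes were called, 0.138% higher and 0.171% lower, so a count of 0 among 35 lies near the background. At an unadjusted p under 0.05 there were 2 members, 5.71%, against 14.3% of all genes, and voom weights on rebuilt reads also called 0. Prdx1 had 85.2, 95.9 and 98.1 FPKM in high and 83.6, 82.2 and 81.7 FPKM in standard arginine, without overlap, at 0.17 (SE 0.07, adjusted p 0.298). Gsto1 had 10.7, 9.45 and 9.45 FPKM in high and 12.2, 12.1 and 10.4 FPKM in standard arginine, which overlap, at -0.20 (SE 0.07, adjusted p 0.252). These were the 2 with the small unadjusted p. Srxn1, Txnrd2 and Chac2 also had no overlap between the high and standard libraries, at -0.09 (SE 0.07), -0.13 (SE 0.07) and 0.28 (SE 0.14); over all tested genes 18.5% had none.

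Log2 changes of the 35 members in high arginine ran from -0.20 for Gsto1 to 0.28 for Chac2, with a median of -0.02 against 0.01 for all tested genes. Their 95% intervals reached from -0.37 to 0.59 at the widest. For Chac1 the interval was -0.24 to 0.11, for Sod1 -0.17 to 0.07, for Gpx1 -0.17 to 0.13, for Keap1 -0.15 to 0.11 and for Nqo1 -0.15 to 0.26, with both bounds smaller in size than the change of the same gene in low arginine. Missing the threshold does not show that levels in high and standard arginine were alike.

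High against low arginine compared the ends of the range, a comparison that shares its low libraries with the first. Here 17 members were higher and 9 lower in high arginine, 74.3% of the 35, against 61.5% of all genes, of which 32.3% were higher and 29.2% lower. In TPM the members were 15 and 12, and 39.5% of all calls were rises against 52.5% as deposited, where the median of all genes moved to -0.10. Srxn1 differed by 1.12 (SE 0.07, adjusted p 2.84e-07) and Nqo1 by 1.01 (SE 0.09, adjusted p 4.87e-06), higher in high arginine. Chac1 was at -1.26 (SE 0.08, adjusted p 3.85e-07) and Hmox1 at -0.84 (SE 0.09, adjusted p 1.86e-05), lower in high arginine. Members called here that did not pass in low against standard arginine were Chac2, with 5.59, 5.82 and 5.89 FPKM in high and 2.69, 4.11 and 4.75 FPKM in low arginine, at 0.50 (SE 0.14, adjusted p 0.0109), and Txnrd1, with 27.3, 29.3 and 29.3 FPKM in high and 27.0, 25.7 and 24.9 FPKM in low arginine, at 0.14 (SE 0.06, adjusted p 0.0477). Neither gene overlapped between the groups, but the Txnrd1 call was lost without low replicate 2 (0.14) or 3 (0.12), standard replicate 1 (0.14) or 2 (0.14), and high replicate 2 (0.12) or 3 (0.12). With other scalings the change itself shrank, to 0.02 in TPM and 0.03 under quantile normalization, neither of them called. Prdx4, at 0.14 (SE 0.05, adjusted p 0.0468), was called in the opposite direction under quantile normalization, at -0.14. Its call was lost in TPM (0.01), with no filter (0.14), at a minimum mean of 5 FPKM (0.14) and with voom weights (0.14), and also without any 1 of the low or high libraries, or without standard replicate 1, at 0.11 to 0.16. Gpx4, at -0.19 (SE 0.09, adjusted p 0.0940), was not called, but it was called lower with the replicate block (-0.19), in TPM (-0.31), under quantile normalization (-0.42), in a fit of the high and low libraries alone (-0.19) and without standard replicate 3 (-0.19). In 29 members, 82.9%, the high and low libraries did not overlap, against 68.4% of all tested genes.

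Other genes of the same pathways, 129 in 7 lists, gave the surroundings of the members. Of these 97 were tested, and in low against standard arginine 28 rose and 43 fell, with a median log2 change of -0.13. Over all tested genes 30.3% rose and 31.9% fell. In the glutathione list 6 of 18 tested genes rose and 8 fell, and those with the smallest p included Slc3a2 and Cth, both of cysteine supply. Slc3a2, the heavy chain of the cystine and amino acid transporters, had 336, 317 and 300.1 FPKM in low against 105, 110.2 and 95.7 FPKM in standard arginine, a log2 change of 1.61 (SE 0.07, adjusted p 4.28e-08). Cth, which makes cysteine from cystathionine, changed by 1.62 (SE 0.07, adjusted p 3.28e-08). Slc7a11, the light chain of the cystine transporter, averaged 3.06 ± 0.584 FPKM in low against 0.844 ± 0.150 FPKM in standard arginine, and changed by 1.13 (SE 0.11). It reached 1 FPKM in the 3 low libraries and in 1 standard library, so it passed the filter mainly through the group where it is high. In the same list Gstm2, a transferase, fell by 1.26 on the log2 scale.

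Among 14 further thioredoxin genes 5 rose and 5 fell, 35.7% each, against 30.3% and 31.9% of all tested genes. Txnip, which binds and inhibits thioredoxin, had 39.4, 35.6 and 38.1 FPKM in low against 9.81, 9.28 and 11.7 FPKM in standard arginine, and the groups were far apart, with a log2 change of 1.79 (SE 0.10, adjusted p 1.49e-07). Sesn2, a stress-induced sestrin, changed by 0.94 (SE 0.07) and Txnrd3, a further thioredoxin reductase, by 0.89 (SE 0.07), with 2.68 ± 0.0396 FPKM in low against 0.993 ± 0.0638 FPKM in standard arginine. Like Slc7a11, Txnrd3 passed the filter mainly through the low libraries. Of 5 further superoxide and peroxide genes 0 rose and 3 fell, namely Ucp2, a mitochondrial carrier, at -1.54 (SE 0.10), Park7, a redox-sensitive chaperone, at -1.33 (SE 0.08), and Sod3, the extracellular dismutase, at -0.95 (SE 0.08).

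Of 13 further genes of NRF2 control 6 rose and 2 fell. Sqstm1, encoding the autophagy receptor p62 that competes with NRF2 for KEAP1, had 553, 513 and 479 FPKM in low against 188, 191 and 165 FPKM in standard arginine, a log2 change of 1.504 (SE 0.07, adjusted p 7.11e-08). Ddi2, the protease that activates the Nfe2l1 product, changed by 0.45 (SE 0.06), and Rbx1, a subunit of the ligase that KEAP1 serves, by -0.48 (SE 0.05). Of 15 further NRF2 targets 2 rose and 10 fell, with a median of -0.32. These are 13.3% and 66.7%, against 30.3% and 31.9% of all tested genes. The list was chosen with earlier results of these data known, so its count is a description. Ptgr1, a reductase of reactive alkenals, changed by -1.43 (SE 0.08) and Ephx1, an epoxide hydrolase, by -0.65 (SE 0.06), while Abcc4, an export pump, rose by 1.01 (SE 0.06).

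NADPH supply, on which both reductases depend, had 3 of 14 genes higher and 7 lower. These are 21.4% and 50%, against 30.3% and 31.9% of all tested genes. Idh1, the cytosolic isocitrate dehydrogenase, had 5.26, 5.25 and 4.41 FPKM in low against 26.9, 32.7 and 31.7 FPKM in standard arginine, a log2 change of -2.39 (SE 0.09, adjusted p 1.07e-08). G6pdx, the entry enzyme of the pentose phosphate pathway, averaged 19.9 ± 1.145 FPKM in low against 38.97 ± 2.23 FPKM in standard arginine, a log2 change of -0.93 (SE 0.06, adjusted p 4.22e-07), and Taldo1 of the same pathway changed by -0.62 (SE 0.06). Among 18 genes of selenoproteins and their synthesis 6 rose and 8 fell. Selenow and Selenoh, small selenoproteins, rose by 1.08 (SE 0.09) and 1.12 (SE 0.11), and Selenok, of the ER membrane, changed by -1.03 (SE 0.06). In high against standard arginine limma called 0 of the 97 genes, with 16 at an unadjusted p under 0.05. Over all tested genes limma called 0.309%, and 14.3% had an unadjusted p under 0.05, so both counts lie near the background.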

How the data were processed

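The authors deposited FPKM per gene, 1 column per library, with gene lengths and coordinates, per the file headers. A directional kit was used on total RNA, per the labels' protocols. CASAVA 1.8, HISAT2 2.0.5 and featureCounts 1.5.0-p3 are named in the submitters' processing notes. Whether reads were counted by strand was not given in the sources used here, so reads of genes that overlap on opposite strands may not be separated. Although the notes name mm9, the table's coordinates are GRCm38: start and end equal those of GENCODE M21 for 98.3% of 54495 common gene IDs.

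Whole reads per library were rebuilt from FPKM times gene length, which fell on whole multiples of 1 read, to within 0.01, in 100% of values. The library size behind FPKM was 0.962 to 1.08 times these reads, so a scale factor was already in the values. This factor differed by group. It was 1.06, 1.05 and 1.08 in low, 0.983, 0.962 and 1.02 in standard and 0.969, 0.969 and 0.994 in high arginine. Deposited FPKM of each low library are thus scaled down relative to the other groups, while TPM values do not depend on the factor. Count models were not applied to FPKM. Genes with at least 1 FPKM in at least 3 libraries, 12300, were tested on log2(FPKM + 1), which understates changes of low genes, with limma 3.58.1 in R 4.3.3, in 1 fit over all 9 libraries with group as its term and a variance trend. Tests were two-sided, with Benjamini-Hochberg adjustment across the 12300 genes. The procedure was tested on simulated data in which few genes changed. In low against standard arginine 62.2% of genes were called, so that test does not give error rates for these data. Of the list genes, Nnt has 2 IDs and was left out. Near-identical transcripts (at least 97% identity over at least 200 bases) were found with BLAST+ 2.17.0 in GENCODE M21. The labels do not say whether equal replicate numbers share a batch, and they were not treated as pairs in the main fit. The correlation of deviations was over 0.1 in 6 of 9 same-number pairs and not in 3 (range -0.04 to 0.24). Pairs of unequal number were not compared, so these values do not settle whether the groups are paired. Between high and low arginine all 3 pairs were over 0.1, at 0.243, 0.153 and 0.217, so changes of a call under the block are given there. Members and lists were chosen with earlier results of these data known, so counts over them are descriptions. All 39 members were named, plus Slc7a11, Txnip, G6pdx, Sqstm1 and up to 3 called genes per list with the smallest p in low against standard arginine. Alternatives covered the pseudocount, filters, scaling, the libraries fitted, a replicate block, voom weights on rebuilt reads and leaving out each library.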

Additional observations from a re-analysis of the deposited data

How the results depend on the processing

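Across the 17 alternatives, 20 of the 24 member calls in low against standard arginine held in every one that tested the gene, and Glrx3, Nfe2l1, Prdx4 and Txnrd2 lost theirs in at least 1. In high against low arginine 21 of 26 held, and Chac2, Nfe2l1, Prdx4, Txn2 and Txnrd1 lost theirs in at least 1. Txn2 lost it without low replicate 1 (-0.20), while Gstm1 gained a call without low replicate 1 (0.30). Gpx4 gained one in 5 alternatives, at -0.19 with the replicate block and up to -0.42 under quantile normalization. Nfe2l1 lost its call there without low replicate 1 (-0.16) or 2 (-0.15) and high replicate 2 (-0.17) or 3 (-0.15). Prdx4 changed sign under quantile normalization, to 0.046 in low against standard arginine and to -0.14 in high against low arginine. Counts of members called stayed within 1.5 times in every setting, and 0 members were called in high against standard arginine in any. With a replicate block 10 members rose and 15 fell in low against standard arginine, and 17 were higher and 10 lower in high against low arginine. Leaving out 1 library gave 6 to 9 higher and 15 to 16 lower members in low against standard arginine, and 15 to 17 and 7 to 10 in high against low arginine.

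Over all genes, fewer were tested with a minimum mean of 5 FPKM, and this gave 2328 rises in low against standard arginine, 26 rises in high against standard arginine and 2190 genes lower in high than in low arginine. The 17 rises and 21 falls in high against standard arginine became 4 and 2 with no filter, 0 and 0 in a fit of the 6 high and standard libraries alone, 46 and 42 with the replicate block and 40 and 34 with voom weights; without 1 library the rises numbered 0 to 26 and the falls 0 to 35. The cause was not tested. Depth limited Cat, Nqo1 and Chac2 most among tested members, at 55, 91 and 93 reads in their lowest library.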
